A study of Bos grunniens with 24 samples.

Results

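Jejunal RNA of yak calves (Bos grunniens) that had received the lactic acid bacterium Pediococcus pentosaceus NQ0729 and were then challenged with enterotoxigenic Escherichia coli (PET) was set against jejunal RNA of untreated control calves (CON). The comparison took every gene of the authors' deposited table in the PET-1 to PET-8 and CON-1 to CON-8 columns: 16 of the 24 libraries of the series, 639 listed genes, of which 505 had enough counts to be tested. The third group, challenged without the bacterium (ETEC, 8 libraries), stands outside the tests, and its levels are given beside those of PET and CON for some genes. PET differs from CON by both the bacterium and the challenge, so a difference between them cannot be assigned to either one. The groups also differ in their Y-linked counts, as described below, which no label explains. The labels name no age, strain, dose, batch, sex or position along the jejunum, and they name no animals behind the replicates, so each p-value measures the spread between these samples only. The table holds genes that the authors called in at least 1 of the 3 comparisons of the series; a gene missing from it was not analysed here.

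The jejunum is the middle stretch of the small intestine, where enterocytes digest peptides, sugars and lipids at the brush border and absorb the products. Enterotoxigenic Escherichia coli adheres to these cells and secretes toxins that drive fluid loss, a frequent cause of diarrhoea in calves. The epithelium also holds goblet cells that make mucus, enteroendocrine cells that secrete hormones, and tuft cells that sense luminal signals, and lymphocytes, mast cells and plasma cells lie within and beneath it. All these cells were sequenced together, so fewer cells of a type and less RNA per cell cannot be told apart in any result given here.

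Counts summed over the listed genes ranged from 475295 to 1209769 in PET libraries and from 299776 to 826249 in CON libraries, and the ratio of count to FPKM (fragments scaled by gene length and library size) gave relative depths of 0.834 to 1.30 in PET and 0.718 to 1.10 in CON. Several libraries stood apart in ways that the labels do not name. ANPEP, the aminopeptidase N of the brush border, was at 7.41 to 16.4 FPKM in 3 PET libraries (PET-3, PET-6, PET-8) and at 8.72 to 9.71 FPKM in 3 CON libraries (CON-4, CON-7, CON-8), while the other libraries held 266 to 1374 FPKM in PET and 311 to 716 FPKM in CON. A principal component analysis placed 45.3% of the variance on its first axis, which lay at 24.7 to 31.0 in those 3 PET libraries and 22.7 to 26.2 in those 3 CON libraries, against -32.9 to 0.94 in the other PET and -26.6 to -5.03 in the other CON libraries. The second component (16.2%) separated the groups, at -1.81 to 24.8 in PET and -17.6 to -5.02 in CON. The listed genes were selected by the authors' calls between groups of these same libraries. A separation of groups is partly built into that choice, and it does not measure a difference over all genes. The counts of 6 libraries (PET-1, PET-2, PET-3, CON-1, CON-2 and CON-3) were close to a weighted sum of 2 others, with a residual at 0.259 to 0.786 of that left by the best single library, against 0.805 to 1 in the other 10. PET-1 lay nearest to PET-4, which took 91.4% of its weighted sum. At 7 of the 8 loci that the authors' table places on chromosome Y, all CON libraries had 0 counts; PET-1 to PET-7 had counts at all 8 loci, and PET-8 had none at USP9Y. Y-linked counts therefore nearly followed group. For any gene given here, a difference tied to them and a difference of treatment cannot be told apart. Neither the library structure nor the Y-linked counts are explained by any label.

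PET and CON jejunum differed in both directions. Of the symbol-bearing genes averaging 1 FPKM or more, ENPP7, CDH26, CYP1A1 and PAPSS2 rose most in PET, and B3GNT6, FABP6, ISG15 and ZBTB16 fell most. In PET, 67 genes were higher and 63 lower than in CON (edgeR's quasi-likelihood test, Benjamini-Hochberg adjusted p under 0.05 over the 505 genes), which is 13.3% and 12.5% of the genes tested and 25.7% for both directions. The listed genes had already been selected by the authors' calls on these same libraries. These shares and all adjusted p-values given here therefore hold within the listed genes only, and they do not measure the rate of false calls over all genes. The median log2 fold change over all 505 genes was 0.26, and 121 of the 130 called genes changed at least 2-fold. FPKM ranges of PET and CON did not overlap for 21 genes (4.16% of those tested), with PET above CON for 9 (1.78%) and below for 12 (2.38%), and all 21 were among the called genes. A gene symbol is given for 40 of the called genes and for none of the other 90. With the 6 sum-like libraries left out, edgeR called 2 genes in the remaining 10 and DESeq2 called 49 of the 130. The 124 called genes that could be tested there all kept the sign of their fold change. Those 10 libraries are part of the 16 that made the calls, so the kept signs are not a separate test. The calls rest on all 16 libraries, and values in those 10 are given beside the results that carry most weight. The standard errors and adjusted p-values from the 16 libraries treat each library as an independent sample. Where the sum-like libraries are not independent of the others, these values are too small, for every gene given here.

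**Figure D1:**
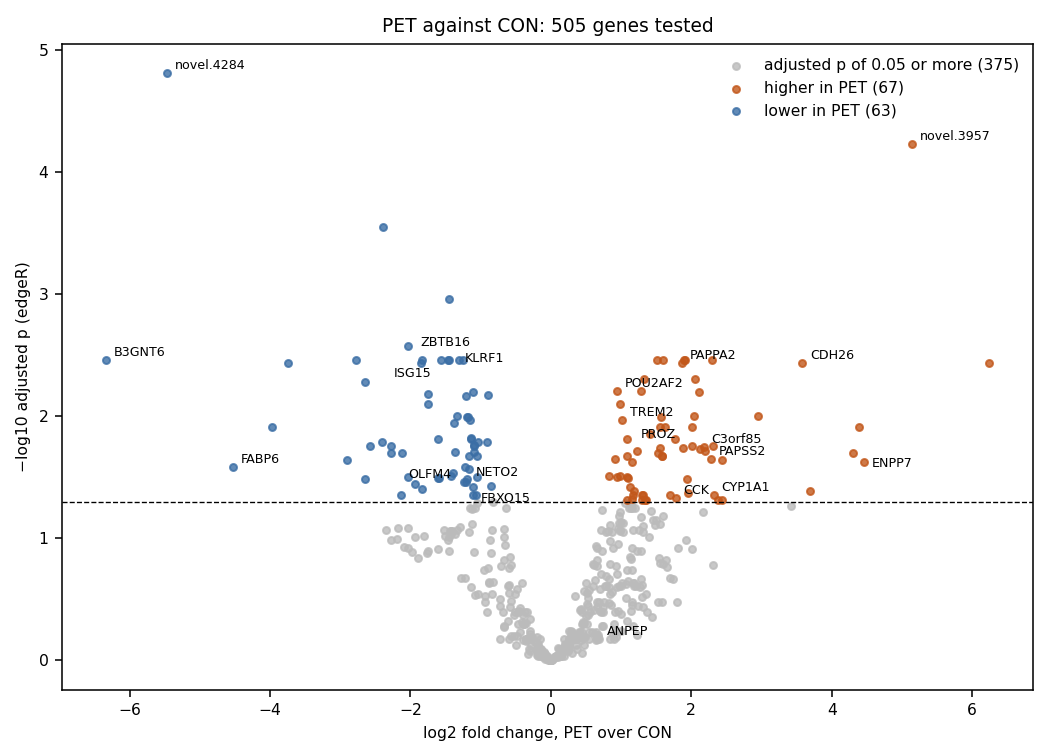
Log2 fold change of PET over CON (horizontal) against −log10 of the edgeR adjusted p (vertical) for the 505 genes tested; orange points are the 67 genes higher in PET, blue points the 63 lower in PET, and the dashed line marks an adjusted p of 0.05. Genes with a symbol lie on both sides, from B3GNT6 at -6.33 to ENPP7 at 4.46, ANPEP at 0.69 lies under the line, and the 2 topmost labelled points are loci without a symbol, at -5.47 and 5.14.

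Among the named genes, rises in which at least 6 PET libraries exceeded all CON libraries included those of PAPPA2, PROZ, C3orf85, WNT10A and TREM2, and of POU2AF2, which is described with the tuft cell loci. PAPPA2, a protease that cleaves binding proteins of insulin-like growth factors (chr14:56672622-56970223 in the coordinates of the authors' table, whose build is not given in the sources used here), was at 0.833, 1.75 and 3.14 FPKM (lowest, median, highest) in PET and at 0.158, 0.497 and 0.766 FPKM in CON. Every PET library exceeded every CON library, and the log2 fold change was 1.87 ± 0.39 (SE; adjusted p = 0.00369). The level of PAPPA2 in ETEC libraries was 1.57 to 2.87 FPKM. PROZ, the vitamin K-dependent protein Z of plasma, reached 0.768, 1.88 and 2.71 FPKM in PET and 0.0385, 0.68 and 1.17 FPKM in CON (log2 fold change 1.55 ± 0.44, adjusted p = 0.0182). Of the 8 PET libraries 7 exceeded all CON libraries in PROZ; PET-5, at 0.768 FPKM, did not. C3orf85, annotated only as an uncharacterised protein, was at 2.76, 12.4 and 64.4 FPKM in PET and 0.695, 4.68 and 8.06 FPKM in CON, with 6 PET libraries above all CON libraries (log2 fold change 2.17 ± 0.61, adjusted p = 0.0179).

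WNT10A, a secreted Wnt ligand, lay at 0.243, 0.969 and 1.42 FPKM in PET and at 0.124, 0.242 and 0.657 FPKM in CON. Its log2 fold change was 1.56 ± 0.40 (adjusted p = 0.0123), and PET-8 (0.243) and PET-4 (0.415) fell within the CON range. TREM2, a lipid-sensing receptor of macrophages, was the 1 macrophage gene of its list that the table holds. It stood at 1.89, 2.98 and 3.97 FPKM in PET and 0.977, 1.53 and 1.98 FPKM in CON, with only PET-8 inside the CON range (log2 fold change 1.02 ± 0.25, adjusted p = 0.0106). In the 10 libraries not close to a sum the log2 fold changes were 2.04 for PAPPA2, 1.58 for PROZ, 2.60 for C3orf85, 1.47 for WNT10A and 1.03 for TREM2, with adjusted p between 0.189 and 0.293.

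CDH26 encodes a cadherin of gastrointestinal epithelium (chr12:49832557-49884473). It lay at 0.528, 3.01 and 15.2 FPKM in PET against 0.124, 0.467 and 0.882 FPKM in CON; in ETEC its highest level was 0.362 FPKM. Of the PET libraries, 5 (PET-1, PET-3, PET-4, PET-5 and PET-8) held 2.55 to 15.2 FPKM and exceeded all CON libraries, while PET-2, PET-6 and PET-7 (0.695, 0.528 and 0.534 FPKM) lay within the CON range. The log2 fold change was 3.58 ± 0.75 (adjusted p = 0.00369), stayed between 3.17 and 3.78 when any 1 library was left out, and was 4.10 in the 10 libraries (adjusted p = 0.148). The counts of PET-1 were close to a sum of PET-4 (91.4%) and PET-5 (8.58%). Those of PET-3 were close to a sum of PET-6 (35.3%) and PET-8 (64.7%). Leaving out 1 library therefore cannot show how far the value depends on such related libraries. The high and low CDH26 libraries did not follow ANPEP: PET-3 and PET-8 were high in CDH26 and low in ANPEP, and PET-2 and PET-7 the reverse.

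**Figure D2:**
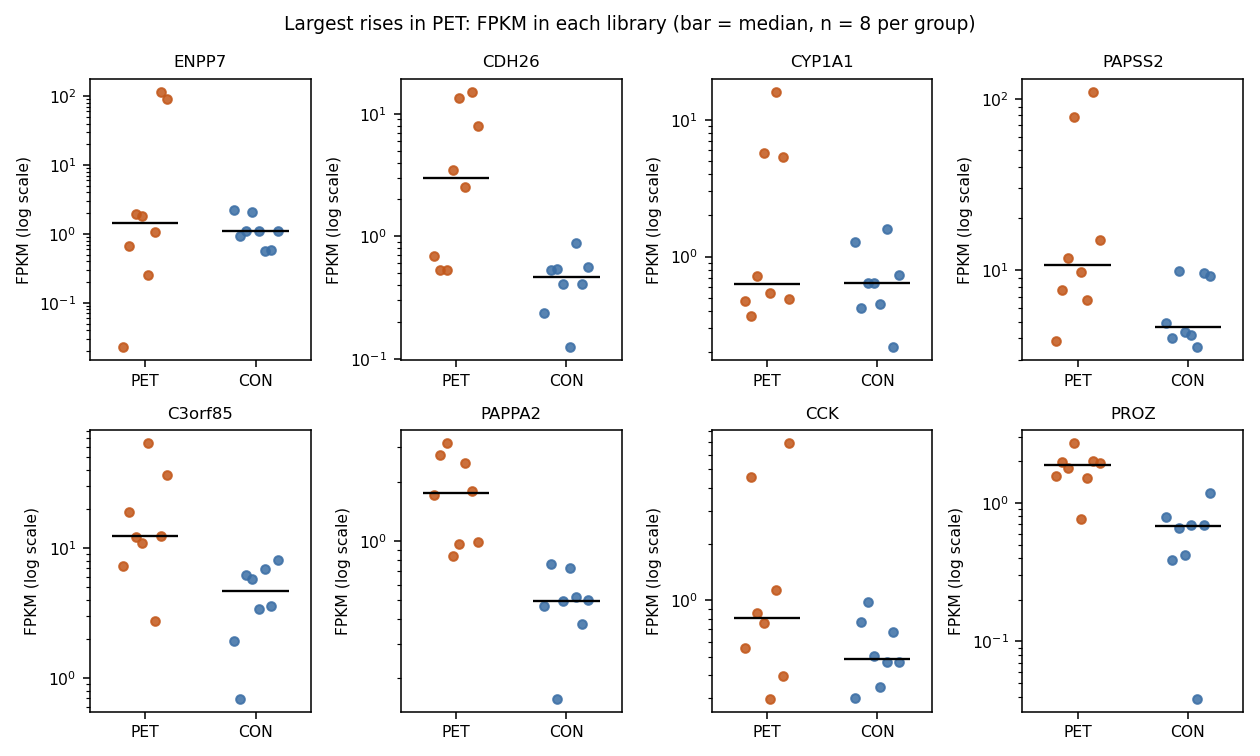
FPKM (log scale) of the 8 symbol-bearing genes, averaging 1 FPKM or more, with the largest rises in PET; each point is 1 library, orange for PET and blue for CON, and the bar is the median of 8 libraries. The groups do not overlap in PAPPA2, while in ENPP7 the PET median is 1.44 FPKM and 2 PET libraries lie near 100, at 91.9 and 116 FPKM.

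Rises of 4 further genes rested on a few PET libraries. ENPP7, the alkaline sphingomyelinase of the brush border, was at 91.9 FPKM in PET-1 and 116 FPKM in PET-4, whereas the other 6 PET libraries held 0.0225 to 1.97 FPKM and the CON libraries 0.556 to 2.19 FPKM. Its fitted log2 fold change was 4.46 ± 1.35 (adjusted p = 0.0235), but the medians were 1.44 FPKM in PET and 1.10 FPKM in CON. Without PET-4 the value was 3.52 (adjusted p = 0.0566), and DESeq2, which replaces outlying counts, gave -0.23 (adjusted p = 0.760); the authors' deposited table gives a log2 fold change of -0.17. PAPSS2, which makes the sulfate donor used for sulfation, was also highest in PET-1 (77.9 FPKM) and PET-4 (110 FPKM), with 3.85 to 15.0 FPKM in the other PET libraries and 3.53 to 9.88 FPKM in CON. Its log2 fold change of 2.29 ± 0.68 (adjusted p = 0.0225) became 1.61 without PET-4 (adjusted p = 0.0606) and 1.43 with limma voom (adjusted p = 0.121). PET-1 and PET-4 were also the pair with the smallest difference in counts within a group (chi-square per gene of 47.0).

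CYP1A1, a cytochrome P450 induced through the aryl hydrocarbon receptor, was high in PET-1 (5.34 FPKM), PET-4 (5.70 FPKM) and PET-5 (16.1 FPKM). In the other PET libraries it held 0.37 to 0.723 FPKM and in CON 0.217 to 1.58 FPKM. The rise (log2 fold change 2.32 ± 0.80, adjusted p = 0.0439) missed the threshold without any 1 of PET-1, PET-4, PET-5, CON-1, CON-3, CON-4, CON-5, CON-6 and CON-8, with adjusted p of 0.0650 to 0.119. Without PET-5 the log2 fold change of CYP1A1 was 1.39, with TMM scaling 1.86 (adjusted p = 0.0612) and with limma voom 1.17 (adjusted p = 0.325). CCK, the hormone cholecystokinin that releases bile and pancreatic juice, was high in PET-3 (4.58 FPKM) and PET-8 (6.91 FPKM), against 0.299 to 1.13 FPKM in the other PET libraries and 0.302 to 0.981 FPKM in CON. The counts of PET-3 were themselves close to a sum of PET-6 (35.3%) and PET-8 (64.7%), so these high values are not independent. The log2 fold change of CCK was 1.78 ± 0.63 (adjusted p = 0.0466), and was 1.12 without PET-8 (adjusted p = 0.133). CCK missed the threshold with TMM scaling (adjusted p = 0.0612), DESeq2 size factors (0.0513) and limma voom (log2 fold change 0.99, adjusted p = 0.259) as well. It also missed the threshold without PET-3 or without any 1 of CON-1, CON-2, CON-3, CON-5, CON-6, CON-7 and CON-8 (adjusted p of 0.0565 to 0.0963). ETEC libraries held 1.03 to 4.55 FPKM of CCK, above the CON range.

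Falls in PET that nearly all libraries shared included ZBTB16, KLRF1 and ISG15. ZBTB16, a transcription factor of innate-like lymphocytes also known as PLZF (chr13:63305837-63567100), was at 0.41, 0.663 and 0.975 FPKM in PET and at 1.17, 1.91 and 2.70 FPKM in CON, without overlap (log2 fold change -1.46 ± 0.29, adjusted p = 0.00346). KLRF1, the activating receptor NKp80 of natural killer cells (chr5:1682876-1693031), was at 0.271, 0.636 and 1.18 FPKM in PET and 1.33, 1.88 and 2.49 FPKM in CON, again without overlap (log2 fold change -1.45 ± 0.29, adjusted p = 0.00346). ISG15, a ubiquitin-like protein induced by interferon, stood at 4.36, 7.23 and 8.59 FPKM in PET and at 8.32, 20.3 and 35.8 FPKM in CON; PET-1, at 8.59 FPKM, was the 1 PET library that reached into the CON range, above CON-4 at 8.32 FPKM. The log2 fold change of ISG15 was -1.57 ± 0.32 (adjusted p = 0.00346). ETEC levels had medians of 0.719 FPKM for ZBTB16, 1.33 FPKM for KLRF1 and 9.28 FPKM for ISG15, each between the PET and the CON median. In the 10 libraries not close to a sum the log2 fold changes were -1.44 for ZBTB16, -1.27 for KLRF1 and -1.32 for ISG15 (adjusted p of 0.189 to 0.278).

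The largest falls among named genes rested on a few CON libraries. B3GNT6, the enzyme that starts core 3 O-glycans on intestinal mucins, was at 45.6, 78.5 and 88.2 FPKM in CON-3, CON-4 and CON-8, while the other 5 CON libraries held 0.309 to 0.874 FPKM and all PET libraries 0.202 to 0.435 FPKM. Its log2 fold change was -6.33 ± 1.28 (adjusted p = 0.00346), with medians of 0.329 FPKM in PET and 0.825 FPKM in CON. The call was lost with limma voom (-3.44, adjusted p = 0.0519) and in the 10 libraries not close to a sum (-6.67, adjusted p = 0.147). Of the ETEC libraries 3 were also high, at 51.1, 76.0 and 96.9 FPKM, with a median of 0.357 FPKM over the 8. The B3GNT6-high libraries included CON-3, whose counts were close to a sum of CON-4 (34.3%) and CON-6 (65.7%). FABP6, the bile acid-binding protein of enterocytes best known from the ileum, was at 480, 378 and 849 FPKM in CON-1, CON-2 and CON-5, and at 0.89 to 13.7 FPKM in the other CON libraries. In PET it held 51.3 FPKM in PET-5 and 1.43 to 5.08 FPKM elsewhere. The fall of FABP6 (log2 fold change -4.53 ± 1.39, adjusted p = 0.0259) missed the threshold with limma voom (-2.50, adjusted p = 0.232) and without CON-5 (-3.76, adjusted p = 0.0539), and CON-1 and CON-2 were themselves close to sums that gave CON-5 48.6% and 51.4%. The FABP6-high libraries were all among those high in ANPEP, and the position of the tissue piece along the intestine was not tested because no label gives it.

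**Figure D3:**
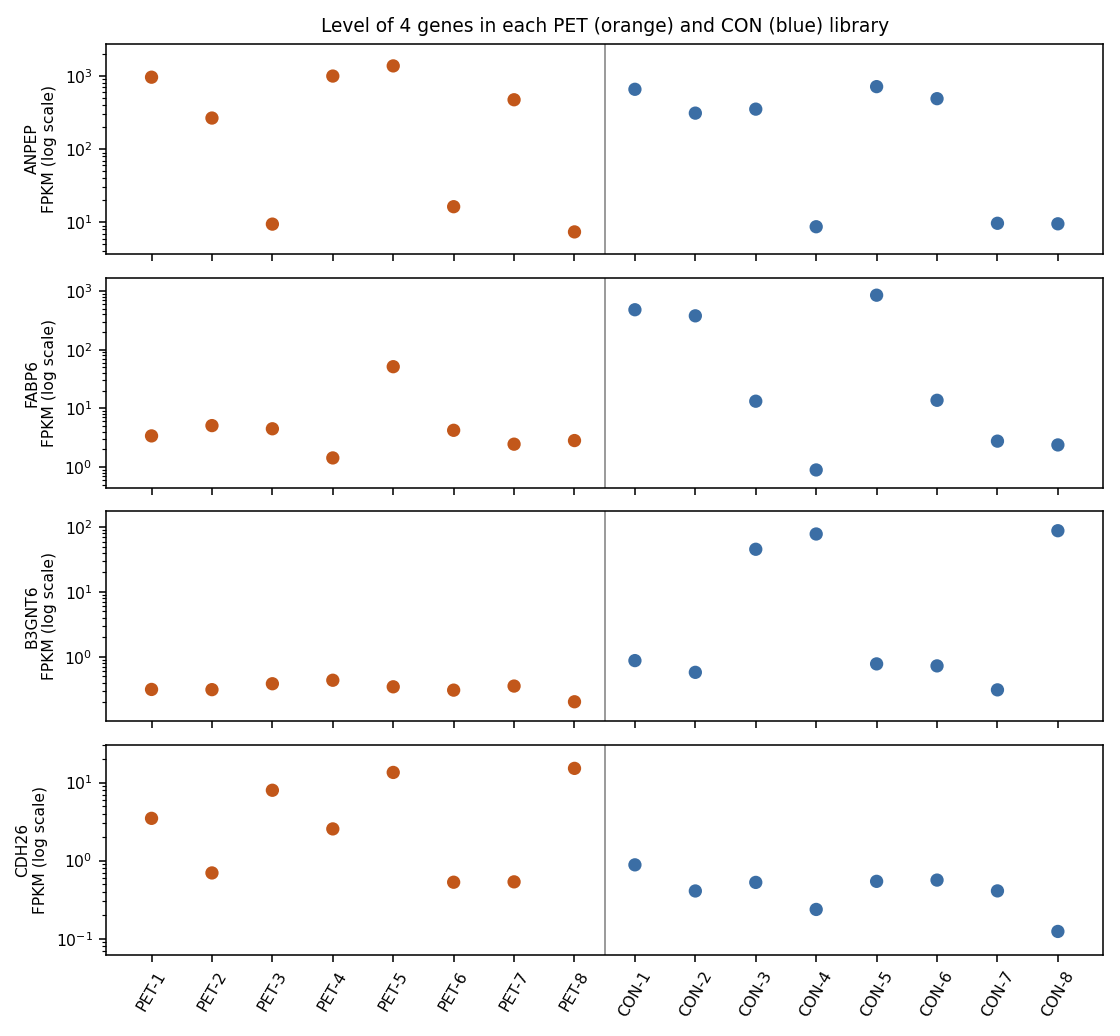
FPKM (log scale) of ANPEP, FABP6, B3GNT6 and CDH26 in each of the 8 PET libraries (orange, left) and 8 CON libraries (blue, right). ANPEP splits both groups into high and low libraries, FABP6 and B3GNT6 are high in 3 CON libraries each, and CDH26 is high in 5 PET libraries.

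Genes of the crypt moved in both directions: of the 3 list members in the table, WNT10A rose and OLFM4 and IGF2BP3 fell. OLFM4, a secreted glycoprotein that marks crypt base stem cells in human intestine, was at 23.7, 64.2 and 119 FPKM in PET and 102, 137 and 303 FPKM in CON, with 6 PET libraries under the lowest CON library. The log2 fold change was -1.23 ± 0.40 (adjusted p = 0.0343), and OLFM4 missed the threshold with TMM scaling (adjusted p = 0.0894), with DESeq2 size factors (adjusted p = 0.143) and without any 1 of PET-1, PET-4, PET-7, CON-1, CON-2 and CON-5 (adjusted p of 0.0520 to 0.0694). IGF2BP3, an RNA-binding protein of fetal and growing tissue, was at 1.51, 4.35 and 12.2 FPKM in PET and 8.41, 11.7 and 13.6 FPKM in CON, and only PET-7, at 12.2 FPKM, lay inside the CON range. Its log2 fold change of -1.07 ± 0.37 (adjusted p = 0.0439) missed the threshold under both of those scalings (adjusted p of 0.0901 and 0.118) and when any 1 of 13 libraries was left out: PET-1 to PET-6, CON-1 to CON-5, CON-7 and CON-8 (adjusted p of 0.0530 to 0.0815).

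Of the other named falls, NETO2 and FBXO15 overlapped widely between the groups. NETO2, an auxiliary subunit of kainate receptors in neurons, had a median of 0.932 and a highest level of 1.34 FPKM in PET, against 1.31 and 5.10 FPKM in CON (log2 fold change -1.21 ± 0.40, adjusted p = 0.0343). It missed the threshold with limma voom (adjusted p = 0.0821) and without any 1 of PET-3, PET-6, PET-8, CON-1, CON-3 and CON-6 (adjusted p of 0.0515 to 0.0738). FBXO15, an F-box protein known from mouse embryonic stem cells, was at 3.55, 4.56 and 5.59 FPKM in PET and 3.43, 9.71 and 16.4 FPKM in CON; all PET libraries lay within the CON range (log2 fold change -1.10 ± 0.37, adjusted p = 0.0378). The lowest 3 CON libraries, at 3.43 to 5.11 FPKM, were the ANPEP-low ones. FBXO15 missed the threshold with DESeq2 size factors and limma voom (adjusted p = 0.0667 and 0.102) and without any 1 of PET-2, PET-3, PET-4, PET-8, CON-1, CON-3, CON-5 and CON-6 (adjusted p of 0.0548 to 0.0772). RNF39, a RING finger protein encoded in the region of the major histocompatibility complex, did not overlap: 1.57, 1.94 and 2.54 FPKM in PET against 2.84, 3.80 and 3.88 FPKM in CON (log2 fold change -0.90 ± 0.21, adjusted p = 0.00668).

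**Figure D4:**
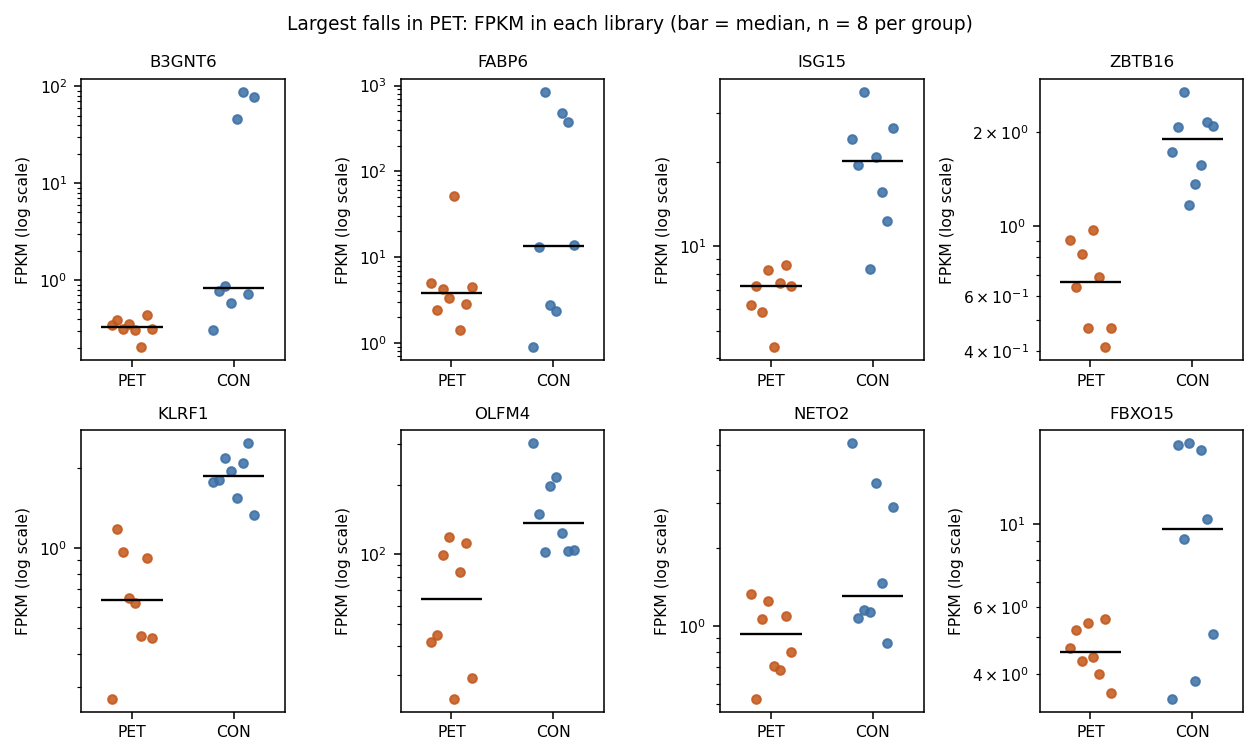
FPKM (log scale) of the 8 symbol-bearing genes, averaging 1 FPKM or more, with the largest falls in PET; each point is 1 library, orange for PET and blue for CON, and the bar is the median of 8 libraries. ZBTB16 and KLRF1 do not overlap between groups, while B3GNT6 and FABP6 each have 3 CON libraries far above the rest.

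Loci that the authors' table annotates as markers of tuft cells, mast cells and natural killer cells were grouped after their values had been seen, and their counts, read beside 13.3% higher and 12.5% lower of all tested genes, are descriptions. All 3 tuft cell loci were higher in PET, of which 2 carry the annotation of the same protein and are not independent of each other. POU2AF2, a coactivator needed for tuft cell identity in mouse and human, was at 0.676, 1.06 and 1.33 FPKM in PET and at 0.429, 0.556 and 0.67 FPKM in CON, without overlap (log2 fold change 0.94 ± 0.21, adjusted p = 0.00625). A pair of neighbouring loci annotated as the taste and tuft cell channel TRPM5 (chr29:2250388-2256222 and chr29:2256388-2257025) rose with log2 fold changes of 0.82 ± 0.26 and 0.91 ± 0.27 (adjusted p = 0.0310 and 0.0225). For the longer TRPM5 locus the levels were 2.55, 5.39 and 7.90 FPKM in PET and 2.21, 3.10 and 3.93 FPKM in CON. The calls of these 2 loci were lost with TMM scaling (adjusted p = 0.0657 for the longer and 0.0700 for the shorter), with DESeq2 size factors (0.0596 for the shorter) and without PET-4 (adjusted p = 0.0603 and 0.0506), and that of the longer also without PET-1, CON-3 or CON-5 (adjusted p of 0.0517 to 0.0580). All 3 calls were lost in the 10 libraries not close to a sum. The log2 fold changes there were 0.95 for POU2AF2, 0.86 for the longer and 0.89 for the shorter TRPM5 locus (edgeR adjusted p of 0.278 to 0.329). ETEC medians of POU2AF2 and the longer TRPM5 locus were 0.423 and 1.86 FPKM. No gene of the tuft cell list fixed by symbol is in the table.

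All 3 loci annotated as mast cell proteases were higher in PET as well. At the tryptase-2 locus ENSBGRG00000026590 the FPKM was 1.07, 2.27 and 2.57 in PET and 0.381, 0.754 and 0.932 in CON, so that the groups did not overlap (log2 fold change 1.52 ± 0.29, adjusted p = 0.00346). The adjacent tryptase-2 locus ENSBGRG00000026570 lay at 4.75, 7.04 and 8.91 FPKM in PET and 1.57, 2.75 and 5.39 FPKM in CON (log2 fold change 1.28 ± 0.29, adjusted p = 0.00625). A locus annotated as mast cell protease 1A, as duodenase-1 and, in another column, as granzyme B (ENSBGRG00000005304) held 0.529, 1.16 and 1.72 FPKM in PET and 0.303, 0.45 and 0.583 FPKM in CON (log2 fold change 1.33 ± 0.29, adjusted p = 0.00500). In each of the last pair 7 PET libraries exceeded all CON libraries. Medians in ETEC were 0.968, 3.59 and 0.832 FPKM in the same order. All 3 calls were lost in the 10 libraries not close to a sum, where the log2 fold changes were 1.41, 1.21 and 1.45 in that order (edgeR adjusted p of 0.189 to 0.278). The adjacent tryptase-2 loci carry the same annotation, and reads may be shared between them. Of the 3 granulocyte genes with a symbol, the eotaxin receptor CCR3, MPO and MMP9, none passed the test (log2 fold changes of -0.61 to -0.28, adjusted p of 0.476 to 0.746), and neither did the eotaxins CCL24 (-0.90, adjusted p = 0.404) and CCL26 (-1.09, adjusted p = 0.292).

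**Figure D5:**
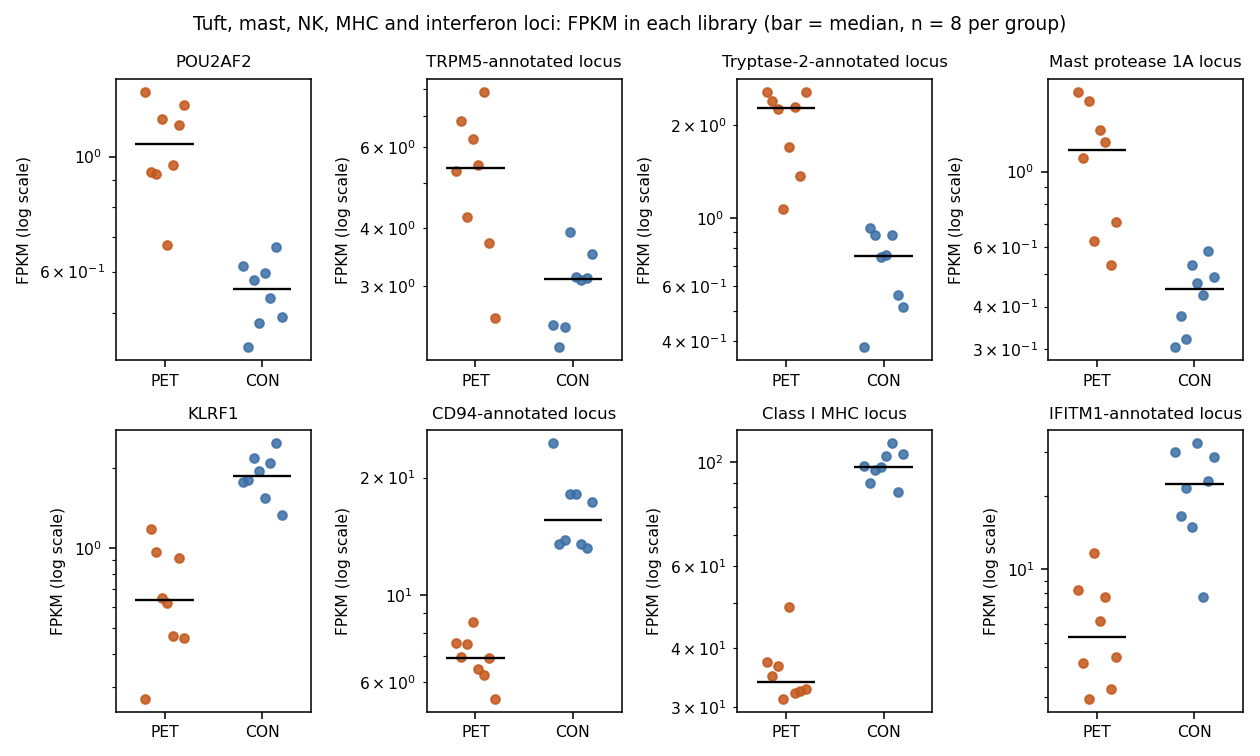
FPKM (log scale) of 8 loci of tuft cells, mast cells, natural killer cells, the major histocompatibility complex and the interferon response; each point is 1 library, orange for PET and blue for CON, and the bar is the median of 8 libraries. The upper row (POU2AF2, TRPM5, tryptase-2, mast cell protease 1A) is higher in PET and the lower row (KLRF1, CD94, class I, IFITM1) lower in PET.

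Among 6 tested loci of natural killer cell receptors, KLRF1 and a locus annotated as CD94 (ENSBGRG00000020643) were lower in PET and 4 did not pass. CD94 pairs with NKG2 chains to bind class I-like molecules. The CD94 locus was at 5.43, 6.92 and 8.52 FPKM in PET and 13.2, 15.6 and 24.5 FPKM in CON without overlap (log2 fold change -1.25 ± 0.25, adjusted p = 0.00346), and at a median of 7.41 FPKM in ETEC. A second CD94 locus gave -0.59 (adjusted p = 0.368), and reads may be shared between such copies. The granzymes of cytotoxic cells did not pass either: GZMM had medians of 5.44 FPKM in PET and 6.70 FPKM in CON (adjusted p = 0.404), and GZMA 20.0 FPKM in PET and 32.1 FPKM in CON (adjusted p = 0.669). Of 8 T cell receptor loci 1 was lower in PET and 7 did not pass, beside 12.5% lower of all tested genes. ZBTB16, KLRF1 and the CD94 locus were thus below the CON range in all 8 PET libraries, while the granzymes overlapped.

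A class I locus of the major histocompatibility complex (ENSBGRG00000022538, chr24:6525098-6531914), whose product presents peptides to T cells and is read by natural killer receptors, was lower in PET. It was at 31.2, 33.9 and 49.0 FPKM in PET, at 28.0, 37.1 and 43.2 FPKM in ETEC and at 86.1, 97.8 and 110 FPKM in CON. The groups PET and CON did not overlap, and the log2 fold change was -1.45 ± 0.23 (adjusted p = 0.00109; -1.46 in the 10 libraries, adjusted p = 0.189). Another class I locus (log2 fold change 0.23, adjusted p = 0.762) and a class II beta chain locus (-0.06, adjusted p = 0.917) did not pass. The called class I locus lies within 290.533 kb of RNF39, and 5 listed genes fall in that stretch, of which 4 were tested: RNF39 and the class I locus were lower in PET, and TRIM40 (log2 fold change 1.12, adjusted p = 0.0378) and a locus with reverse transcriptase annotation (chr24:6459541-6465839; 6.24, adjusted p = 0.00364) were higher. Class I genes are polymorphic and have near-identical copies, and whether allele differences between animals enter these counts was not tested.

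Interferon-induced loci, again grouped after their values had been seen, were lower in PET at 3 of 5 tested, beside 12.5% of all tested genes. Beside ISG15 these were a locus annotated as an interferon alpha-inducible protein 27-like protein (ENSBGRG00000014043), at 56.8, 83.3 and 156 FPKM in PET and 72.4, 233 and 504 FPKM in CON, and a locus at chr29:128933-139708, described as interferon-induced transmembrane protein 1 in 1 annotation column and as glypican 5 in another. The log2 fold change of ENSBGRG00000014043 was -1.40 ± 0.44 (adjusted p = 0.0294), and its call was lost with limma voom (adjusted p = 0.0653) and without PET-3, CON-1 or CON-5 (adjusted p of 0.0542 to 0.0593). The chr29 locus held 2.96, 5.27 and 11.7 FPKM in PET and 7.69, 22.2 and 32.8 FPKM in CON (log2 fold change -1.85 ± 0.39, adjusted p = 0.00369), and CON-5 was the CON library that reached into the PET range. Both loci of the interferon-induced very large GTPase had positive values that did not pass (1.60 and 1.92, adjusted p = 0.163 and 0.104).

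Immunoglobulin loci, also grouped after their values had been seen, moved in both directions. Among 10 tested, 2 were higher and 5 lower in PET, beside 13.3% higher and 12.5% lower of all tested genes. Of the lower loci only IGHM is described here. IGHM, the constant region of the IgM heavy chain, was at 877, 1401 and 1919 FPKM in PET and at 1253, 2523 and 5129 FPKM in CON (log2 fold change -1.05 ± 0.31, adjusted p = 0.0213). Its call was lost with DESeq2 size factors (adjusted p = 0.0513). A locus annotated as immunoglobulin lambda-like polypeptide 5 (ENSBGRG00000020645) went the other way, at 310, 4457 and 8117 FPKM in PET and 500, 1980 and 3149 FPKM in CON (log2 fold change 1.35, adjusted p = 0.0487). A heavy chain variable segment (ENSBGRG00000008868) was likewise higher, at 111, 514 and 1709 FPKM in PET and 104, 203 and 313 FPKM in CON (log2 fold change 1.77, adjusted p = 0.0155). Variable segments of immunoglobulins share sequence with each other, so the split of reads between such copies is uncertain.

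No member of the transporter list was called, although all had positive values, the smallest being 0.0007. The list does not hold every transporter in the table. None of the 14 transporters of amino acids, peptides, vitamins, ions and bile acids in the table passed, all 14 log2 fold changes were above 0, and their median was 0.68 beside 0.26 over all genes tested. The smallest adjusted p among them was that of SLC15A1, the peptide transporter of the brush border, at 16.8, 29.8 and 187 FPKM in PET and 18.1, 23.8 and 36.4 FPKM in CON (log2 fold change 1.26 ± 0.53, adjusted p = 0.0859). SLC6A19, which takes up neutral amino acids, showed the split of ANPEP: the ANPEP-low PET libraries held 0.887 to 1.43 FPKM and the ANPEP-low CON libraries 0.884 to 1.08 FPKM, while the other PET libraries held 28.1 to 132 FPKM and the other CON libraries 30.0 to 83.2 FPKM. The log2 fold changes were 0.64 ± 1.09 for SLC6A19 (adjusted p = 0.684) and 0.69 ± 1.09 for ANPEP (adjusted p = 0.669), with standard errors larger than the values. A difference between PET and CON was not detectable for these genes against that spread within each group.

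Of 10 brush border enzymes and membrane proteins, ENPP7 alone passed, and the median log2 fold change was 1.26. The peptidases MEP1A (medians of 7.34 FPKM in PET and 6.30 FPKM in CON, adjusted p = 0.214), ACE (72.0 FPKM in PET and 57.2 FPKM in CON, adjusted p = 0.215) and ENPEP (27.0 FPKM in PET and 30.4 FPKM in CON, adjusted p = 0.366) illustrate how far means and medians differed, since their log2 fold changes were 1.74, 1.28 and 1.31. In MEP1A 3 PET libraries exceeded all CON libraries and 4 lay below them all. None of 6 ion and acid-base transport genes passed either, with log2 fold changes of -0.33 (CA7) to 1.35 (CA12) and adjusted p of 0.288 to 0.943.

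At other loci of the apical membrane some calls were made, in classes formed after the values had been seen. A locus annotated as the transmembrane mucin-13 in 1 column and as an RNA polymerase subunit in another (ENSBGRG00000011810) was at 39.1, 69.9 and 88.7 FPKM in PET and 9.18, 23.0 and 32.6 FPKM in CON, without overlap (log2 fold change 1.60 ± 0.31, adjusted p = 0.00346). The second mucin-13 locus had medians of 146 FPKM in PET and 88.1 FPKM in CON and did not pass (adjusted p = 0.0774). At 6 neighbouring loci annotated as cubilin, the ileal receptor for the intrinsic factor and vitamin B12 complex, the log2 fold changes were 1.17 to 1.43, and 3 of them were called (adjusted p of 0.0439 to 0.0894). All carry the annotation of the same protein and are not independent of each other. Of 4 loci annotated as the efflux pump ABCC4, 2 were higher in PET and 2 did not pass. Beside the counts of these classes, 13.3% of all tested genes were higher in PET.

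Mucus, endocrine and other epithelial lists were represented by 1 to 4 genes each. In the mucus list, B3GNT6 fell while ITLN2, an intestinal lectin (medians of 11.7 FPKM in PET and 1.85 FPKM in CON, adjusted p = 0.165), and TFF1, a trefoil peptide of mucus (1.71 FPKM in PET and 1.42 FPKM in CON, adjusted p = 0.588), did not pass. Neurotensin, NTS, had medians of 13.7 FPKM in PET and 38.0 FPKM in CON and did not pass (log2 fold change -1.45, adjusted p = 0.128). MTTP, needed to build chylomicrons, was at medians of 59.8 FPKM in PET and 36.9 FPKM in CON (adjusted p = 0.0887), with 6 PET libraries above all CON libraries. NQO1, a quinone reductase of oxidative defence, had 23.4 FPKM in PET and 11.5 FPKM in CON (adjusted p = 0.0852). The antimicrobial genes LTF (medians of 0.308 FPKM in PET and 0.863 FPKM in CON, adjusted p = 0.226) and NOS2 (0.835 FPKM in PET and 1.80 FPKM in CON, adjusted p = 0.0920) and the flagellin receptor TLR5 (4.06 FPKM in PET and 4.53 FPKM in CON, adjusted p = 0.645) did not pass. The regional transcription factors OSR2, ONECUT2 and HOXB6 had log2 fold changes of 0.19 to 1.55 and adjusted p of 0.160 to 0.921.

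Liver-type plasma proteins included the called rise of PROZ and 7 tested members with negative values that did not pass. Albumin, ALB, was at 0.221, 3.84 and 8.89 FPKM in PET and at 0.138, 5.29 and 53.3 FPKM in CON (log2 fold change -1.98, adjusted p = 0.129), and the fibrinogen chain FGB at 0.118, 2.21 and 4.58 FPKM in PET and 0.199, 2.14 and 40.0 FPKM in CON (log2 fold change -2.19); adjusted p over the 7 was 0.0869 to 0.298. The 8 tested members had a median log2 fold change of -1.90, the lowest among the lists with more than 2 members. HRG, another liver-type plasma protein that is outside the list and was picked after its value had been seen, fell in PET, with medians of 0.0879 FPKM in PET and 0.405 FPKM in CON (log2 fold change -2.90 ± 0.87, adjusted p = 0.0228). In all, 14 of the 77 tested list genes were called, beside 25.7% of all tested genes, and 23 of the 30 lists have a member in the table.

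Loci without a gene symbol made up 90 of the 130 called genes: 47 higher and 43 lower in PET among 283 tested, beside 13.3% higher and 12.5% lower of all tested genes. The smallest adjusted p in each direction belonged to such loci, and these 2 were also the only ones that edgeR called in the 10 libraries not close to a sum. The risen locus (chr5:122937458-122938823), without annotation, was at 5.08, 15.7 and 45.3 FPKM in PET and 0, 0.449 and 1.25 FPKM in CON (log2 fold change 5.14 ± 0.63, adjusted p = 5.9e-05), from 1151 counts summed over PET and 27 over CON. Its ETEC libraries ranged from 0.172 to 50.4 FPKM. The fallen locus (chr7:87574860-87575101), annotated as a LINE-1 retrotransposon reading frame, had 6 counts over all PET libraries, 5 of which had none, and 262 over CON, where each library held 3.33 to 7.15 FPKM (log2 fold change -5.47 ± 0.58, adjusted p = 1.55e-05). In the 10 libraries the log2 fold changes were 5.19 for the first (adjusted p = 0.0407) and -5.18 for the second (adjusted p = 0.0269).

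Repeat-derived loci, grouped after the values had been seen, included 13 tested loci with endogenous retrovirus annotation, of which 10 were lower and 1 higher in PET, at a median log2 fold change of -2.03 beside 0.26 over all tested genes. Of 26 tested LINE-1 loci 5 were lower and 4 higher, and the share of all tested genes was 12.5% lower and 13.3% higher. Copies of such repeats are near identical, so their counts are uncertain. On chromosome X, 5 of 16 tested loci were lower in PET and none higher, beside the same shares of all tested genes. Outside chromosome Y, 11 loci, all without an Ensembl identifier, had 0 counts in every CON library and in PET-8 but counts in 5 or 6 of the other PET libraries, and 1 locus had counts in 5 CON libraries and none in PET. Without PET-8, which lacked USP9Y counts, 129 genes were called. For 106 of these 129 PET-8 lay on the same side of the CON mean as the change in the other PET libraries, and for 74 it lay beyond every CON library. These counts have no share over all tested genes beside them. The 129 genes were called against the same CON libraries that PET-8 is compared with, so the counts are not a separate test. Whether the changes follow the Y-linked counts was not tested.

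The authors' deposited table calls 117 genes higher and 82 lower in PET than in CON, of which 46 and 22 had too few counts to be tested here; 60 of the higher and 58 of the lower ones were also called in the same direction by edgeR. Both sets of calls come from the same counts, so their overlap is not a separate test. For 12 genes the call was made here and not in the authors' deposited table. The genes that the authors' deposited table calls all change at least 2-fold there, a limit not set here, and 7 of the 12 have an adjusted p under 0.05 in it with a smaller change. ENPP7 is among the other 5. Over 498 genes with both values, the deposited log2 fold change minus that of edgeR had a median of 0.05, and the sign differed for 20 tested genes.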

How the data were processed

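RNA from jejunum of yak calves was sequenced in 3 groups of 8 libraries, per the labels. Per the file headers, the deposited table gives for each library a read count and an FPKM value per gene, and the authors' log2 fold change and p-value per comparison; for the aligner, the counter and the genome build, the entry is: not given in the sources used here. The labels' library text describes small-RNA enrichment, while the table holds gene-level values; the reason was not tested. No value column of an unknown sample was used (0 columns).

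Relative depth was taken from count over FPKM ratios of 233 genes. Genes with enough counts (filterByExpr) were tested with edgeR 4.0.16 (quasi-likelihood, R 4.3.3) on the 16 PET and CON libraries; p-values were Benjamini-Hochberg adjusted over 505 genes, and a change was called at an adjusted p under 0.05. Alternatives used DESeq2 1.42.0, limma 3.58.1 and the settings listed with the closing results. The fit was tested on simulated counts of independent libraries with the same dispersion for every gene. Those counts held no sum-like libraries and no split within a group, so they cannot show how the fit performs with such structure. Members, lists and the choice of the comparison were made with earlier results of these data known. Named genes were called genes that carry a symbol and average 1 FPKM or more, 8 in each direction by size of change, up to 3 called members per list, and symbol genes whose ranges did not overlap; annotated loci, HRG, TRIM40 and genes that did not pass were chosen after their values were seen. Reads of near-identical or overlapping genes (immunoglobulin, class I, CD94, repeats, USP9Y) may be split by the authors' counting. Some list members are not reported here.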

Additional observations from a re-analysis of the deposited data

Results flagged for a closer look

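In 6 of 68 gene and group combinations examined over 8 libraries, 1 library stood far from the others; chance marks about 1 in 20. In PET these were CYP1A1 at 16.1 FPKM in PET-5, FABP6 at 51.3 FPKM in PET-5, the class I locus ENSBGRG00000022538 at 49.0 FPKM in PET-5 and the mucin-13 locus ENSBGRG00000011810 at 39.1 FPKM in PET-7, the last being the lowest PET library. In CON these were RNF39 at 2.84 FPKM in CON-5, the lowest CON library, and the CD94 locus ENSBGRG00000020643 at 24.5 FPKM in CON-5. USP9Y, outside the comparison of groups, had a mean of 11.1 FPKM in PET and 0 counts in every CON library. No cause was tested.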

How the results depend on the processing

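Against 67 higher and 63 lower genes (130 in all, 14 list members), the calls were 54, 59 and 113 with TMM and 64, 45 and 109 with DESeq2 size factors. DESeq2 called 192 genes with 22 list members, and limma voom 109 with 9, at a median log2 fold change over all tested genes of -0.01 beside 0.26. Without the filter on low counts 131 genes were higher and 221 changed, and with all 3 groups in the fit 151 and 239. Leaving out 1 library gave 98 to 161 changed genes, 49 to 84 higher, 49 to 84 lower and 9 to 14 list members; the lowest total was without PET-4 and the highest without PET-5. With the replicate number as a block 18 genes were higher and 22 lower (40 in all, 4 list members), but the numbers do not pair the samples: 3 of 8 same-numbered correlations exceeded 0.1 and 2 libraries correlated best with their own number. With the 6 sum-like libraries left out, edgeR called 1 higher and 1 lower gene (2 in all, 0 list members; 80 at an unadjusted p under 0.05). Chosen after seeing the data, DESeq2 on the other 10 called 25 and 24 (49 in all, 7 list members), and DESeq2 without outlier replacement called 105 higher and 196 in all (23 list members). ENPP7 reversed to -0.23 with DESeq2. Fewer samples and more tested genes are part of these settings; other causes were not tested. Depth limits genes near 0 counts: 134 listed genes could not be tested.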
